A study of Homo sapiens with 27 samples.

Results

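Toll-like receptors are membrane proteins through which myeloid cells sense microbial products, and 10 genes of this system were followed in 3 acute myeloid leukaemia cell lines after knockdown of CARM1. CARM1, also called PRMT4, is an arginine methyltransferase that acts on histones and on transcriptional co-regulators. The 10 genes were taken by symbol from a table of 57992 genes, and each symbol matched 1 row. They were TLR2, TLR1 and TLR6, TLR4 with LY96 and CD14, TLR5, TLR7, TLR8 and MYD88. TLR2 pairs with TLR1 or TLR6 at the cell surface and binds bacterial lipopeptides. TLR4 binds bacterial endotoxin together with the small protein encoded by LY96 (MD-2), and CD14 hands the endotoxin to that complex. TLR5 binds flagellin, TLR7 and TLR8 bind RNA inside endosomes, and the adaptor MYD88 carries the signal from all of these receptors to NF-kB. In the myeloid lineage CD14 is the classical surface marker of monocytes.

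RNA was sequenced from 27 libraries, 9 each of MOLM13, MV411 and SKNO1. MOLM13 and MV411 are lines with a rearranged KMT2A gene, and SKNO1 carries the RUNX1::RUNX1T1 fusion. In each line, 3 libraries came from cells given a scramble shRNA, 3 from cells given CARM1 hairpin 1 and 3 from cells given CARM1 hairpin 2, and the same scramble libraries were the control of both hairpins. All cells, controls included, had received a constitutive lentiviral hairpin and were collected after 3 days. SKNO1 cells of all 3 groups were grown with 10 ng/mL of the cytokine GM-CSF, a supplement not listed for the other lines, so line and supplement cannot be told apart. No label says whether the 3 replicates of a group were separate cultures or infections, so p-values measure the spread between these libraries only, which may be technical.

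Library totals ranged from 25063577 to 53291599 expected counts. Levels are given as CPM, counts scaled to the library size. In each line, all 6 hairpin libraries held less CARM1 than any scramble library. The mean left with hairpins 1 and 2 was 19.4% and 16.3% for MOLM13, 26.2% and 12.99% for MV411, and 42.5% and 15.6% for SKNO1 (two-sided exact permutation p = 0.1 for each, the smallest that 3 against 3 can give). The myeloid genes CD33, PTPRC and SPI1 were present in all groups, and RUNX1T1 averaged 70.1 ± 1.85 CPM (SD, n = 3) in SKNO1 scramble libraries and at most 0.103 CPM in any MOLM13 or MV411 library. Of the stem and progenitor markers, CD34 did not exceed 0.156 CPM in any library. KIT, the other gene of that list, stood at 147 to 295 CPM in SKNO1, 9.87 to 20.9 in MV411 and at most 0.841 in MOLM13. Summed B cell, T cell and fibroblast markers stayed at or below 2.15 CPM. Epithelial keratins and EPCAM summed to at most 18.4 CPM and the megakaryocyte genes PF4 and ITGA2B to at most 58.2 CPM, in SKNO1. Mitochondrial and structured RNA took a larger share of the counts in hairpin libraries than in scramble libraries of each line (41.9% to 52.7% against 37.2% to 39.8% in MOLM13, 42.7% to 51.1% against 37.3% to 39.9% in MV411, 24.4% to 29.4% against 18.4% to 20.8% in SKNO1). All comparisons were also fitted without these RNAs, and the hairpin calls of members that changed are given below. Beyond that, the part of this shift in the results was not tested.

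In the scramble libraries TLR2 had the highest level per length of the 10 genes in each line. Divided by the length of its exons, TLR2 stood at 6.30 ± 0.963 CPM per kb in MOLM13, 22.1 ± 3.84 in MV411 and 3.16 ± 0.195 in SKNO1 (SD, n = 3). MYD88 came second in each line, with 3.62 ± 1.29, 3.60 ± 1.07 and 2.69 ± 0.438 CPM per kb. In SKNO1 the libraries of TLR2 and MYD88 overlapped, so their order was not resolved there. TLR4 followed in MOLM13 and SKNO1, at 2.15 ± 1.15 and 1.39 ± 0.227 CPM per kb, and TLR1 and TLR4 had overlapping libraries in MV411, at 1.68 ± 0.0213 and 1.62 ± 0.195. CD14, TLR5, TLR7 and TLR8 were the 4 lowest genes in MOLM13 and MV411, none above 0.237 CPM per kb on average. Of the 9 pairs of neighbours in the order, 6 overlapped in MOLM13, 4 in MV411 and 6 in SKNO1.

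**Figure D1:**
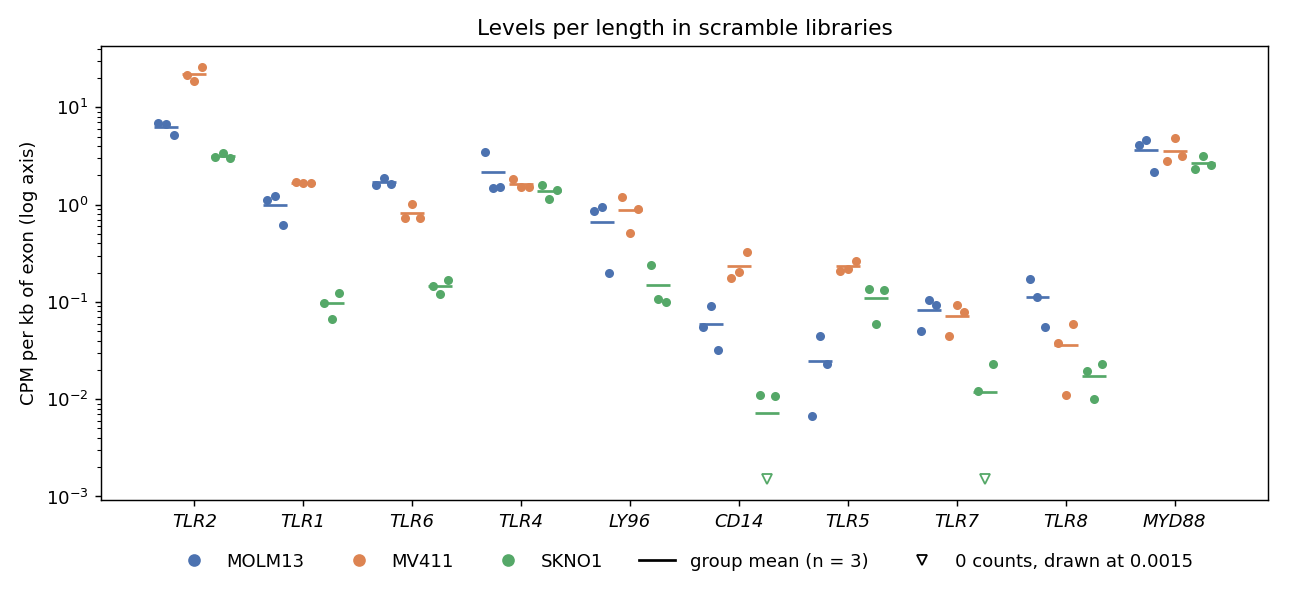
Levels of the 10 genes per kb of exon in the scramble libraries (log axis); each point is a library, the bar is the mean of 3 libraries, and an open triangle marks a library with 0 counts. TLR2 and MYD88 lead in each line, and SKNO1 lies lowest for TLR1, TLR6, LY96 and CD14.

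The scramble libraries of the lines were compared as well. In edgeR's quasi-likelihood test with Benjamini-Hochberg adjustment over all genes, 4 of 9 tested members differed between MV411 and MOLM13, where 30.8% of all genes did (14.8% higher and 16% lower in MV411). TLR2 was higher in MV411 by a log2 difference of 1.80 ± 0.16 (SE), CD14 by 2.02 ± 0.51 and TLR5 by 3.22 ± 0.52, whereas TLR6 was lower, with a log2 difference of -1.06 ± 0.21. The CD14 call was lost without MOLM13 scramble replicate 3 (adjusted p = 0.0636), without MV411 scramble replicate 3 (0.0657) and in a fit of all 27 libraries (0.0611). Against MOLM13, SKNO1 had lower TLR1, TLR2, TLR6, LY96, CD14 and TLR7 and higher TLR5, so 7 of 9 members differed where 56% of all genes did (27.2% higher and 28.8% lower). LY96 lost its call there without MOLM13 scramble replicate 1 or 2 or SKNO1 scramble replicate 2 or 3 (adjusted p = 0.0552 to 0.0642) and in the fit of all 27 libraries (0.0995). CD14 lost it without MOLM13 scramble replicate 2 (0.0571) and in that fit (0.0806). Against MV411, the same test called 6 of 9 members lower in SKNO1 (TLR1, TLR2, TLR6, LY96, CD14 and TLR7), where 55.5% of all genes differed and 28.4% were lower. LY96 (7, 3 and 3 counts), CD14 (1, 0 and 1) and TLR7 (3, 0 and 6) were too low in SKNO1 scramble libraries for the filter for low counts. They entered only through the other lines and could only be called lower in SKNO1. CD14 entered through MV411 alone (4, 6 and 3 counts in MOLM13), and TLR5 was low in MOLM13 (2, 12 and 9). Nothing is read from their part in the counts of members. Differences between lines were thus common over all genes, and nothing particular to these receptors is read from the counts. The largest of these differences in a gene with more than a few counts was TLR1, with a log2 difference of -4.11 ± 0.33 between SKNO1 and MV411 (adjusted p = 1.25e-06). CD14 was close to absent in SKNO1, with 2 counts over its 3 scramble libraries, and its CPM in MV411 was 32.5 times as high, with an exact 95% counting interval of 8.53 to 275.4. TLR4 and MYD88 were not called different between any pair of lines in the reported fit. Between SKNO1 and MOLM13, TLR4 was called in the fit of all 27 libraries (adjusted p = 0.0433) and without the filter (0.0158). It was also called there without MOLM13 scramble replicate 2 (0.031) or 3 (0.0346), and MYD88 without replicate 3 (0.0327). DESeq2 called TLR1 between MV411 and MOLM13 (0.0259) and TLR5 between SKNO1 and MV411 (0.0381). The fit of all 27 libraries called that TLR1 difference too (0.0448). TLR8 was too low for the test.

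RefSeq promoter windows (GRCh38.p14 table, 250 bases before the start) were found for 7 of the 10 genes, and the stretches below were chosen after their matches were seen, since they hold letters of motifs for myeloid or inflammatory transcription factors. They belong to CD14, TLR4 and MYD88, the genes with a window that were called with both hairpins in a line, and to TLR8, which had the largest rise in MV411. GENCODE exons of the same gene cover 250 of the 250 window bases of CD14, 228 of TLR4 and 183 of MYD88, so these windows lie wholly or mostly inside annotated transcripts, and 0 of those of TLR8. Capitals mark the motif matches, each strand is that of the gene, and each is read 5′ to 3′. The CD14 stretch lies on chromosome 5 from 140633254 to 140633283 (minus strand) and holds the PU.1 core letters GAGGAA. The TLR4 stretch lies on chromosome 9 from 117704342 to 117704371 (plus strand) and holds GGGCGG, the SP1 letters, beside GAGGAA. The MYD88 stretch lies on chromosome 3 from 38138590 to 38138619 (plus strand) and holds a match to GAAANNGAA, the interferon-response letters. The TLR8 window is given whole, from 12906370 to 12906619 of chromosome X (plus strand), and holds matches on the opposite strand to the C/EBP letters TTGCNNAA and, apart from these, to GAAANNGAA.
CD14: ggggctggctcgGAGGAAgagaggtgggga
TLR4: ccaattgctgtgGGGCGGctcGAGGAAgag
MYD88: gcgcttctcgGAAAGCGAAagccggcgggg
TLR8: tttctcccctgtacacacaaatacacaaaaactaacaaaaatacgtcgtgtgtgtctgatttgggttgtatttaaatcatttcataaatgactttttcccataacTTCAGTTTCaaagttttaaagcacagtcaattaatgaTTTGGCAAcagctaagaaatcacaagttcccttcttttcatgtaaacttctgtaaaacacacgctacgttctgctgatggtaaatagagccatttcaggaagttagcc
Both strands were searched. Of all 35116 windows of this length, 23.6% held GAGGAA, 42.6% held GGGCGG, 9.05% held TTGCNNAA and 6.88% held GAAANNGAA. The AP-1 letters TGANTCA were in 6.57% of windows and in that of CD14 alone among the members, and the NF-kB letters GGGANTTTC were in 1.12% and in no member's window. GAGGAA was in 4 of the 7 member windows (TLR6, TLR4, CD14 and MYD88) and GGGCGG in 4 (TLR2, TLR4, TLR5 and MYD88). These are matches of letters and show no binding.

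By calls, most of these genes rose with hairpin 2 in MV411, 2 rose with each hairpin in MOLM13, and few in SKNO1. A call depends on spread as well as size, and on the filter for low counts. CD14 in MOLM13 (4, 6 and 3 scramble counts) passed it only through hairpin libraries, and TLR8 in MV411 (5, 2 and 10) only through hairpin 2. For those hairpins only a rise could be called, and nothing is read from their part in the counts and medians below. LY96, TLR5, TLR7 and TLR8 in MOLM13 and TLR7 in MV411 also needed hairpin libraries to pass. In MOLM13 all 10 log2 differences were above 0 with each hairpin. In edgeR's test 7 (hairpin 1) and 9 (hairpin 2) of them had an unadjusted p under 0.05. Their medians, 1.29 for hairpin 1 and 1.27 for hairpin 2, compare with 1.60 for MV411 hairpin 2. Hairpin 1 gave a median of 0.25 in MV411, with 4 members below 0. No member's hairpin 2 effect was called different between MV411 and MOLM13. With hairpin 2 in MV411, 9 of 10 members rose, where 18.6% of all genes changed and 8.38% rose. TLR2 was the member not called, with a log2 difference of 0.51 ± 0.17. With the replicate number as a block it was called too (adjusted p = 0.0195). With hairpin 1 in MV411 only TLR4 was called, and it rose, where 6.51% of all genes changed and 2.37% rose. With the replicate block MYD88 was called there as well, at 0.67 ± 0.19 (adjusted p = 0.0451), and the number of all genes called went from 1159 to 2250. In MOLM13, TLR1 and CD14 rose with each hairpin, 2 of 10 members, where 6.38% of all genes changed and 2.13% rose with hairpin 1, and 9.42% changed and 3.39% rose with hairpin 2. In SKNO1, where 6 members could be tested, hairpin 1 raised MYD88 and lowered TLR4 (0.532% of all genes changed, 0.255% rose and 0.277% fell), and hairpin 2 raised TLR1 and MYD88 (11.2% changed, 5.54% rose). In MV411, where the members rose together with hairpin 2, the summed level of 7 myeloid markers was 644 to 1090 CPM with scramble, 1005 to 1329 with hairpin 1 and 1408 to 2013 with hairpin 2, and ITGAM went from 1.11 to 3.59 CPM with scramble to 14.4 to 24.8 with hairpin 2. Most of the sum was LYZ, the lysozyme gene, at 362 to 780 CPM with scramble and 984 to 1519 with hairpin 2. MPO, the myeloperoxidase of granule-forming precursors and also on that list, went the other way, from 2.66 to 3.59 CPM with scramble to 1.51 to 2.31 with hairpin 1 and 1.5 to 1.95 with hairpin 2. CSF1R, on that list too, stood at 23.3 to 31.0 CPM with scramble, 34.7 to 67.1 with hairpin 1 and 41.1 to 70.1 with hairpin 2. The part of these markers in these rises was not tested. LY96, CD14, TLR7 and TLR8 were below the filter for low counts in SKNO1.

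**Figure D2:**
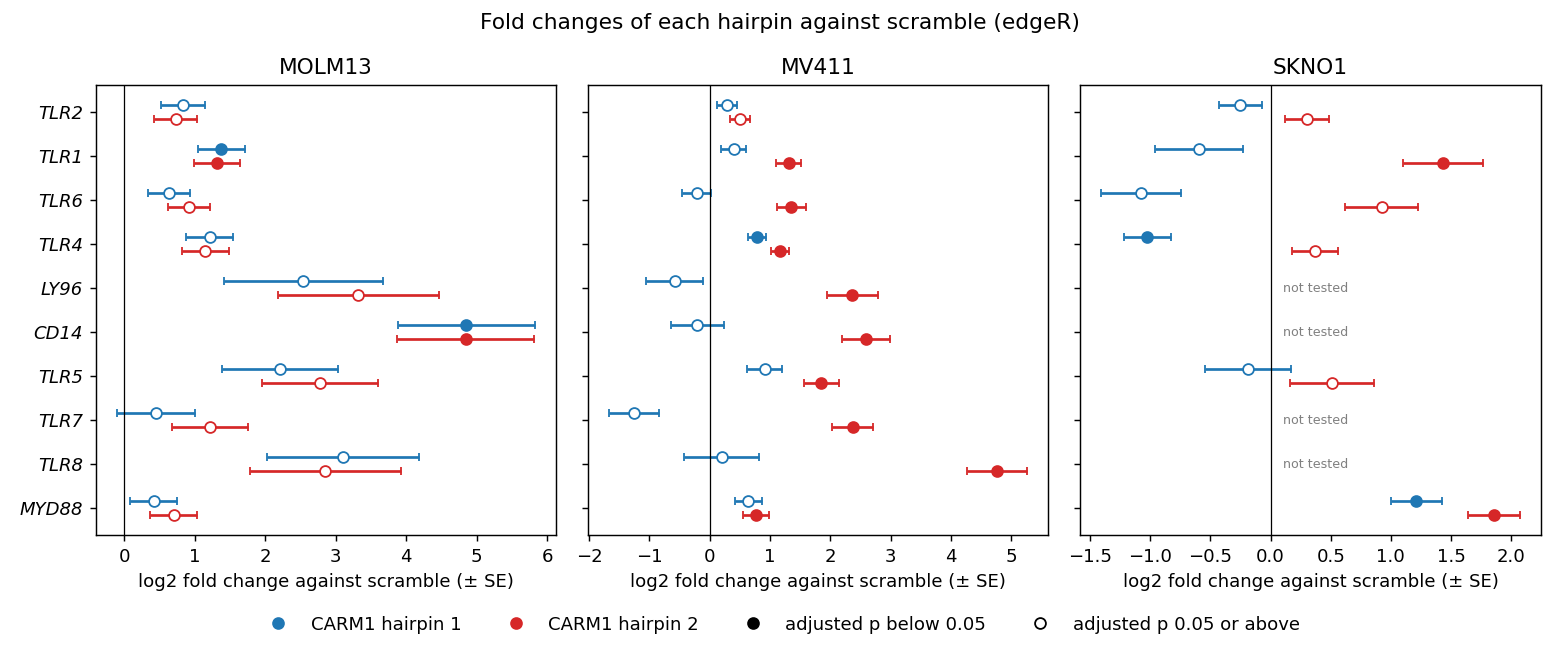
Log2 fold change of each member against the scramble libraries of its line (x axis, ± SE), by hairpin; filled circles passed an adjusted p of 0.05 in edgeR's quasi-likelihood test. In MV411 the circles of hairpin 2 lie at 0.51 or above for every gene, and in SKNO1 the circles of hairpin 1 lie below 0 for TLR1, TLR6 and TLR4 and above 0 for MYD88.

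The libraries of hairpin and scramble separated for more members than the test called, except with hairpin 2 in MV411. The members named above that passed the filter for low counts only with hairpin libraries are in these counts. In MOLM13, every hairpin 1 library lay above every scramble library for 8 of 10 members, where this held for 16.5% of all genes, and every hairpin 2 library for 4 of 10, against 13.5%. In MV411 the count was 3 of 10 with hairpin 1, against 14.9%, with TLR7 below scramble in every library (13.8% of all genes), and 9 of 10 with hairpin 2, against 15.1%. With hairpin 2 there, TLR2 separated by a very small margin (137.5 against 137.0 CPM) without being called, and MYD88 was called although its libraries overlapped. In SKNO1 it was 1 of 6 with hairpin 1, against 10.8%, and 5 of 6 with hairpin 2, against 19.7%. TLR6 and TLR4 lay below scramble in every SKNO1 hairpin 1 library, 2 of 6 members where 8.79% of all genes did.

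CD14, the endotoxin co-receptor, had the largest fold change of the members in MOLM13. Its MOLM13 scramble libraries held 0.104, 0.172 and 0.0599 CPM, the hairpin 1 libraries 7.50, 1.10 and 1.16, and the hairpin 2 libraries 1.29, 2.25 and 5.97. Every hairpin library lay above every scramble library, and 1 library of each hairpin group stood well above the other two. The rise was 4.86 ± 0.97 on the log2 scale with hairpin 1 (adjusted p = 0.0177) and 4.84 ± 0.97 with hairpin 2 (adjusted p = 0.0155). The scramble libraries held 13 CD14 counts in all, so the ratio of pooled CPM, 26.4 with hairpin 1, had an exact 95% counting interval of 15.1 to 50.2, and that with hairpin 2, 32.5, one of 18.8 to 61.7. These intervals cover counting error only. Without scramble replicate 2 or scramble replicate 3 the call was lost (adjusted p = 0.0616 and 0.0888 with hairpin 1, 0.0551 and 0.0764 with hairpin 2), with log2 differences of 4.498 to 5.28.

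In MV411 the scramble libraries held 0.333, 0.386 and 0.621 CPM of CD14. Hairpin 1 left it in the same range, at 0.329, 0.188 and 0.662, and hairpin 2 gave 3.28, 2.57 and 2.47. The hairpin 2 libraries stood apart from both other groups, and the rise over scramble was 2.59 ± 0.41 on the log2 scale (adjusted p = 0.00166). In SKNO1, CD14 had 2 counts in the scramble group and 1 in each hairpin group, so no change could be seen at this depth. As RNA came from whole cultures, more cells with CD14 and more CD14 RNA per cell cannot be told apart, here and for the genes below.

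LY96, the endotoxin-binding partner of TLR4, followed the same libraries. In MOLM13 it measured 0.521, 0.574 and 0.120 CPM with scramble, 5.65, 0.777 and 0.619 with hairpin 1 and 0.610, 1.66 and 9.64 with hairpin 2. All hairpin libraries lay above all scramble libraries, but 3 of the 6 did so by small margins, and the log2 differences of 2.54 ± 1.13 and 3.32 ± 1.14 were not called (adjusted p = 0.214 and 0.0906). The fit of all 27 libraries called LY96 there with hairpin 2 (adjusted p = 0.0108). In MV411 the scramble libraries held 0.732, 0.314 and 0.543 CPM, hairpin 1 libraries 0.263, 0.219 and 0.567, and hairpin 2 libraries 2.63, 1.82 and 3.78. Hairpin 2 raised LY96 there by 2.37 ± 0.43 on the log2 scale (adjusted p = 0.0035, and 0.0584 in the fit of all 27 libraries), while hairpin 1 libraries overlapped those of scramble. In SKNO1, LY96 stayed between 0.0605 and 0.571 CPM.

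The 2 MOLM13 libraries that stood high for CD14 and LY96 were hairpin 1 replicate 1 and hairpin 2 replicate 3. They were also the highest for TLR8, at 10.7 and 7.68 CPM against 2.19 or less in the other 7 MOLM13 libraries. ITGAM, the integrin CD11b of monocytes and granulocytes, was at 135 and 144 CPM in them, against 34.98 to 62.6 in the other hairpin libraries and 10.4 to 32.4 in scramble. PTPRC and SPI1 were also highest of their hairpin group in both, whereas CD33, LYZ, CSF1R and MPO were so in only 1 of them. CSF1R was lowest of the hairpin 1 libraries in replicate 1 (38.1 against 44.9 and 46.1 CPM). With hairpin 2, LYZ was higher in replicate 1 (5004 CPM) than in replicate 3 (3029). The summed level of 7 myeloid markers ranged from 837 to 3927 CPM in scramble, from 3317 to 5812 with hairpin 1 and from 1186 to 5503 with hairpin 2. LYZ made up most of it, at 473 to 3342 CPM with scramble and 727 to 5027 with the hairpins. MPO lay lower in most hairpin libraries, at 68.9 to 220 CPM with scramble, 42.3 to 108 with hairpin 1 and 44.4 to 52.1 with hairpin 2. The part of these markers in the results was not tested. With both high libraries left out, CD14 was still higher with each hairpin, by 3.33 ± 0.49 and 4.03 ± 0.48 on the log2 scale (adjusted p = 0.0108 and 0.00672), whereas the TLR1 difference with hairpin 2, 0.88 ± 0.29, was not called (adjusted p = 0.078).

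**Figure D3:**
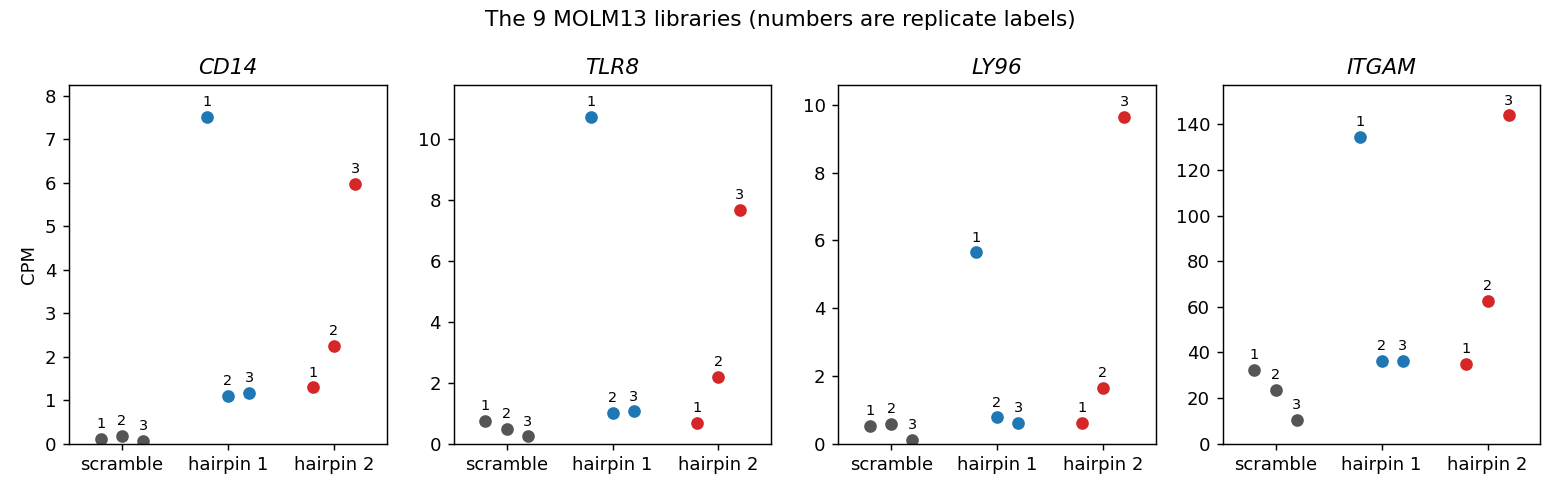
CPM of CD14, TLR8, LY96 and ITGAM in the 9 MOLM13 libraries, each point a library labelled with its replicate number. Hairpin 1 replicate 1 and hairpin 2 replicate 3 are the highest libraries in all 4 panels. Of the myeloid markers only ITGAM is drawn, and not all of the others followed these libraries.

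TLR4, the endotoxin receptor, rose in MV411 and fell with hairpin 1 in SKNO1. Its SKNO1 scramble libraries held 21.2, 15.2 and 18.8 CPM, hairpin 1 libraries 10.9, 9.52 and 6.88, and hairpin 2 libraries 23.7, 23.7 and 24.3. Hairpin 1 libraries were all below scramble and hairpin 2 libraries all above it. TLR4 fell by 1.03 on the log2 scale with hairpin 1 (SE 0.20, adjusted p = 0.0435), and the difference with hairpin 2, 0.37 ± 0.19, was not called. The hairpin 1 call was lost without scramble replicate 1 or 3 or hairpin 1 replicate 1 or 3 (adjusted p = 0.0644 to 0.3215) when mitochondrial and structured RNA were removed (adjusted p = 0.0552) and in the fit of all 27 libraries (0.0609).

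In MV411, TLR4 rose with both hairpins. It measured 24.5, 19.99 and 19.9 CPM with scramble, 31.7, 43.4 and 36.8 with hairpin 1, and 49.8, 44.2 and 52.7 with hairpin 2. No group overlapped another, and the rises were 0.79 ± 0.15 (adjusted p = 0.0121) and 1.17 ± 0.15 (adjusted p = 0.000704) on the log2 scale. The hairpin 1 call was lost without scramble replicate 3 (adjusted p = 0.0706) or hairpin 1 replicate 2 (adjusted p = 0.0674), and in the fit of all 27 libraries (0.092). In MOLM13 the scramble libraries were uneven, at 46.2, 19.5 and 19.9999 CPM, with 80.3, 56.9 and 61.3 for hairpin 1 and 71.0, 42.7 and 74.3 for hairpin 2. The log2 differences of 1.21 ± 0.34 and 1.15 ± 0.34 missed the threshold (adjusted p = 0.0596 and 0.0557), and passed it without scramble replicate 1, the high library, at 1.73 and 1.67 (adjusted p = 0.00665 and 0.00808). With the replicate block the hairpin 1 difference was 1.29 ± 0.23 and was called (adjusted p = 0.02). The fit of all 27 libraries called TLR4 with each hairpin in MOLM13 (adjusted p = 0.00373 and 0.00529).

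TLR2, the shared chain of the lipopeptide receptors, was called in no hairpin comparison of the reported fits. With hairpin 2 in MV411 it was called by DESeq2 (adjusted p = 0.0217), without mitochondrial and structured RNA (0.048) and with the replicate block. It was also called there without scramble replicate 3 (0.0434) or hairpin 2 replicate 2 (0.0259). The fit of all 27 libraries called it in MOLM13 (0.0271 and 0.0481 with hairpins 1 and 2), and DESeq2 between the SKNO1 hairpins (0.0393). In MOLM13 it went from 36.0, 35.5 and 27.05 CPM to 87.9, 51.5 and 36.7 with hairpin 1 and 40.3, 49.7 and 71.6 with hairpin 2. Both hairpin groups lay above scramble in every library, hairpin 1 by a small margin, and neither log2 difference (0.84 ± 0.31 and 0.73 ± 0.31) passed the threshold (adjusted p = 0.138 and 0.153). In MV411 it measured 112, 97.4 and 137 CPM with scramble, 130, 157 and 141 with hairpin 1 and 172, 138 and 192 with hairpin 2. In SKNO1 it measured 16.3, 17.6 and 15.6, then 11.7, 17.2 and 12.99, then 18.6, 22.1 and 21.0 CPM. Hairpin 2 libraries were above scramble in each line, in MV411 by a very small margin (137.5 against 137.0 CPM). The lines kept their order, with MV411 highest and SKNO1 lowest.

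TLR1, a partner chain of TLR2, was the member called most often, rising in 4 of the 6 hairpin comparisons. In MOLM13 it went from 5.03, 5.57 and 2.83 CPM to 12.4, 11.5 and 11.1 with hairpin 1 and 7.79, 8.31 and 17.0 with hairpin 2, by 1.38 ± 0.33 and 1.32 ± 0.33 on the log2 scale (adjusted p = 0.0345 and 0.0344). No hairpin library overlapped a scramble library. With the replicate block the hairpin 1 call was lost (1.37 ± 0.36, adjusted p = 0.0622). Leaving out any of the 6 libraries of the hairpin 1 comparison also ended it (adjusted p = 0.0664 to 0.133), and so did leaving out any scramble library, or hairpin 2 replicate 3, for hairpin 2 (adjusted p = 0.0642 to 0.121). In MV411 the scramble libraries held 7.72, 7.65 and 7.53 CPM, hairpin 1 libraries 8.85, 14.0 and 7.62, and hairpin 2 libraries 21.0, 17.1 and 19.5. Hairpin 2 raised it there by 1.31 ± 0.21 (adjusted p = 0.00194), and hairpin 1 libraries overlapped scramble. In SKNO1, TLR1 was low, at 0.441, 0.306 and 0.565 CPM with scramble, 0.340, 0.338 and 0.193 with hairpin 1 and 1.02, 1.49 and 1.08 with hairpin 2. The rise with hairpin 2 was 1.44 ± 0.33 (adjusted p = 0.0169), and it was not called without scramble replicate 1 or 2 or hairpin 2 replicate 2 or 3 (adjusted p = 0.0519 to 0.0993).

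TLR6, the other partner chain, rose with hairpin 2 in MV411. There it measured 4.39, 6.06 and 4.42 CPM with scramble, 3.12, 5.75 and 4.06 with hairpin 1 and 11.01, 13.1 and 14.4 with hairpin 2, a rise of 1.35 ± 0.24 on the log2 scale (adjusted p = 0.00299). In MOLM13 it went from 9.65, 11.3 and 9.82 CPM to 20.6, 14.0 and 13.5 with hairpin 1 and to 10.4, 20.8 and 26.1 with hairpin 2, with differences of 0.64 ± 0.30 and 0.91 ± 0.30 that were not called. The fit of all 27 libraries called TLR6 there with hairpin 2 (adjusted p = 0.0322). In SKNO1 it stood at 0.882, 0.720 and 1.01 CPM with scramble. Hairpin 1 libraries were below that, at 0.576, 0.338 and 0.338, and hairpin 2 libraries above it, at 1.79, 2.07 and 1.15. Neither difference from scramble was called, at -1.08 ± 0.33 (adjusted p = 0.147) and 0.92 ± 0.30 (adjusted p = 0.0687).

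TLR1 and TLR6 overlap on chromosome 4, the span of TLR6 lying within that of TLR1 (GRCh38, minus strand, 38790677 to 38856817 and 38823715 to 38856817), and their annotated exons share 57 bases. Their counts were not whole numbers (to within 1e-09) in any of the 27 libraries, as RSEM divides reads that fit several genes, so each level is uncertain by the reads they share. Per length, TLR1 was the lower of the pair in MOLM13 scramble libraries, at 0.694, 0.654 and 0.384 of TLR6, and in SKNO1, at 0.665, 0.565 and 0.745. It was the higher in MV411, at 2.34, 1.68 and 2.27 times TLR6. The libraries of MV411 did not overlap those of the other lines in any condition. The ratio averaged 0.993 ± 0.168 and 0.797 ± 0.238 (SD, n = 3) with hairpins 1 and 2 in MOLM13. It averaged 3.17 ± 0.639 and 2.02 ± 0.453 with the hairpins of MV411, and 0.959 ± 0.322 and 0.991 ± 0.245 with those of SKNO1.

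TLR5, the flagellin receptor, rose with hairpin 2 in MV411, from 1.63, 1.69 and 2.07 CPM to 8.16, 7.23 and 4.37. This was a rise of 1.85 ± 0.29 on the log2 scale (adjusted p = 0.00173). Hairpin 1 gave 4.31, 3.56 and 2.39 CPM, all above scramble, with a difference of 0.91 ± 0.29 that was not called (adjusted p = 0.0948). In MOLM13 the scramble libraries held 0.0521, 0.345 and 0.180 CPM, hairpin 1 libraries 0.948, 1.10 and 0.645 and hairpin 2 libraries 0.287, 0.687 and 2.93. Those differences, 2.21 ± 0.83 and 2.78 ± 0.82, were large but not called (adjusted p = 0.142 and 0.0586). The fit of all 27 libraries called each (adjusted p = 0.0257 and 0.00405). In SKNO1, TLR5 stayed between 0.458 and 1.62 CPM, with overlapping groups.

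TLR7 and TLR8, the endosomal RNA receptors, are neighbours on chromosome X, 16239 bases apart on the plus strand, and both rose with hairpin 2 in MV411. TLR8 measured 0.166, 0.0483 and 0.259 CPM with scramble, 0.197, 0.250 and 0.0945 with hairpin 1 and 5.77, 4.58 and 2.88 with hairpin 2. The first 2 groups overlapped and the third was far above them, by 4.77 ± 0.50 on the log2 scale against scramble (adjusted p = 0.000259). The scramble libraries held 17 TLR8 counts in all, and the ratio of pooled CPM was 27.8, with an exact 95% counting interval of 17.1 to 48.2. An antisense gene, TLR8-AS1, overlaps TLR8 and held 0 to 4 counts per library. TLR7 measured 0.233, 0.483 and 0.414 CPM with scramble and 2.42, 1.82 and 1.83 with hairpin 2, a rise of 2.37 ± 0.34 (adjusted p = 0.00103). With hairpin 1 it was 0.132, 0.125 and 0.221 CPM, below every scramble library, but the difference of -1.25 ± 0.41 was not called (adjusted p = 0.109).

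In the fit of the MOLM13 libraries neither of the pair was called with either hairpin. TLR8 went from 0.756, 0.488 and 0.240 CPM to 10.7, 1.00 and 1.06 with hairpin 1 and 0.682, 2.19 and 7.68 with hairpin 2. The differences of 3.11 ± 1.08 and 2.85 ± 1.07 were not called (adjusted p = 0.117 and 0.115). In the fit of all 27 libraries each was called (adjusted p = 0.0122 and 0.016). TLR7 stayed between 0.261 and 1.28 CPM with overlapping groups. In SKNO1 no library exceeded 0.289 CPM of TLR7 or 0.189 CPM of TLR8.

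MYD88, the adaptor shared by these receptors, rose with both hairpins in SKNO1. It measured 9.28, 12.7 and 10.2 CPM with scramble, 30.5, 23.0 and 21.7 with hairpin 1 and 38.8, 31.8 and 46.9 with hairpin 2. The 3 groups did not overlap. The rise was 1.21 ± 0.21 on the log2 scale with hairpin 1 (adjusted p = 0.0398) and 1.86 ± 0.22 with hairpin 2 (adjusted p = 0.000599). With hairpin 2 it passed the threshold without each library in turn, at 1.69 to 2.01 (adjusted p = 0.00102 to 0.00882). With hairpin 1 it did not pass without scramble replicate 1 or 3 or hairpin 1 replicate 1 or 3 (adjusted p = 0.0795 to 0.296). Per length, MYD88 became the highest of the 10 genes in SKNO1, at 6.29 ± 1.19 CPM per kb with hairpin 1 and 9.82 ± 1.90 with hairpin 2, above TLR2 at 2.68 ± 0.546 and 3.94 ± 0.343.

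In MV411, MYD88 measured 11.2, 19.2 and 12.7 CPM with scramble, 22.0, 23.4 and 22.4 with hairpin 1 and 30.1, 25.2 and 19.2 with hairpin 2. Hairpin 2 raised it by 0.77 ± 0.22 (adjusted p = 0.03), a call lost without scramble replicate 1 or 3 or hairpin 2 replicate 1 or 2 (adjusted p = 0.055 to 0.133) and in the fit of all 27 libraries (0.0655). The difference with hairpin 1, 0.64 ± 0.22, was not called in the reported fit (adjusted p = 0.114). Besides the block given above, it was called without scramble replicate 2 (0.90 ± 0.20, adjusted p = 0.0245) and without a filter on low counts (0.0239). In MOLM13 it measured 16.3, 18.3 and 8.62 CPM with scramble, 28.1, 14.7 and 15.2 with hairpin 1 and 16.5, 25.4 and 27.5 with hairpin 2, with overlapping groups and no call.

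**Figure D4:**
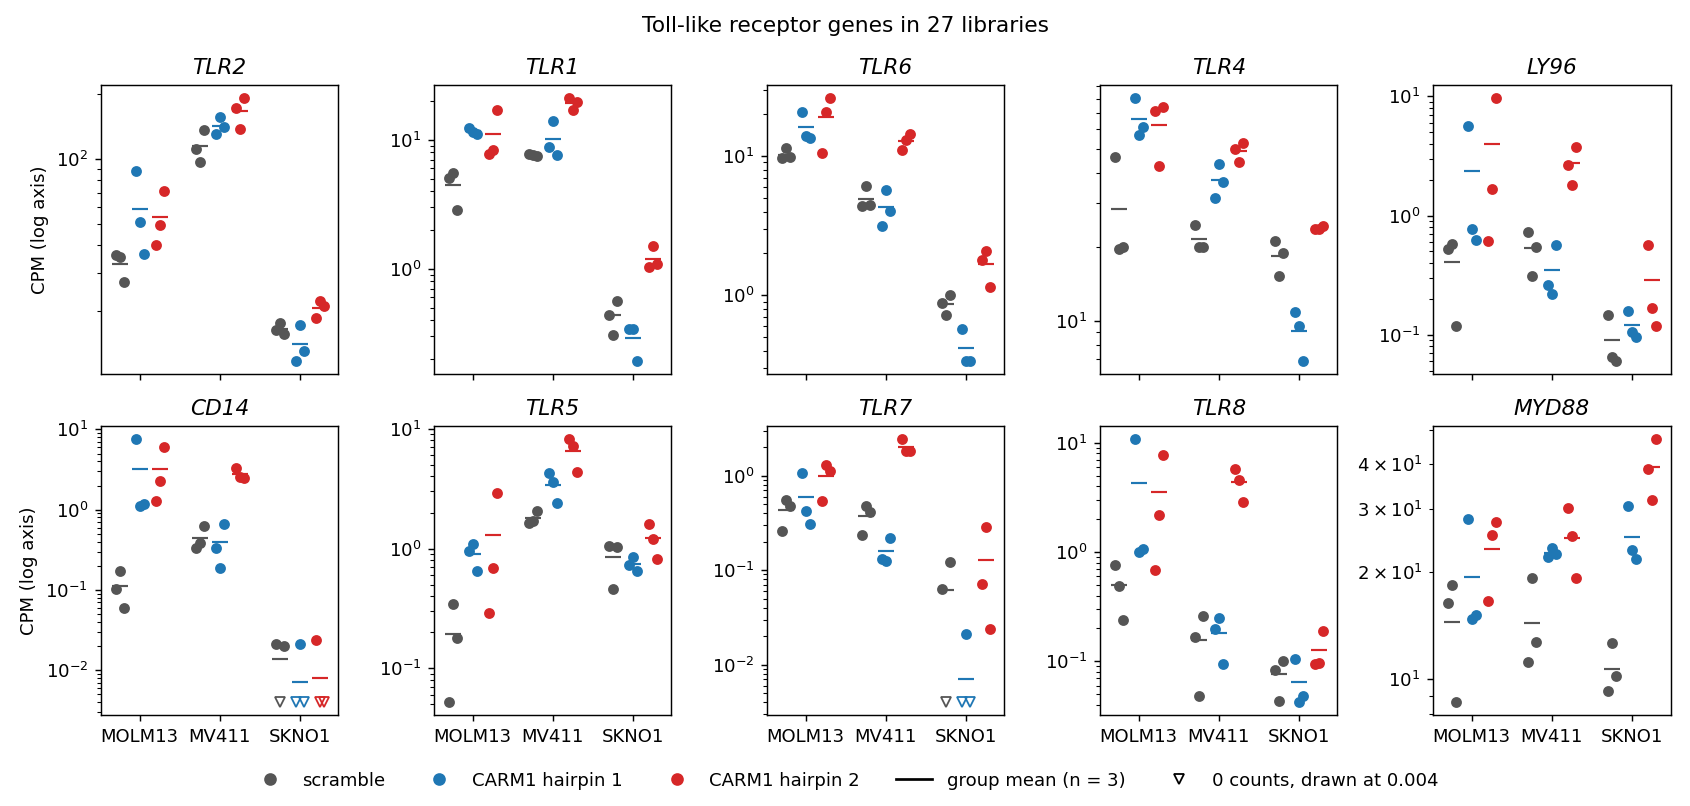
CPM of each member in the 27 libraries (log axis), by line and group; points are libraries, bars are group means (n = 3), and open triangles are libraries with 0 counts. MV411 hairpin 2 libraries stand above scramble for 9 genes, for TLR2 by a very small margin, and MYD88 rises in SKNO1 from 9.28 to 12.7 CPM with scramble to 31.8 to 46.9 CPM with hairpin 2.

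The hairpins were compared with each other directly. In MOLM13 no member differed between them, none of 10 had an unadjusted p under 0.05, and none of all 17732 genes tested was called (0%). In MV411, TLR1, TLR6, LY96, CD14, TLR7 and TLR8 were higher with hairpin 2 than with hairpin 1, 6 of 10 members where 11.5% of all genes differed and 5.86% were higher. The log2 differences ran from 0.91 ± 0.21 for TLR1 (adjusted p = 0.0183) to 4.57 ± 0.50 for TLR8 (adjusted p = 0.000594). TLR1 lost its call without hairpin 1 replicate 1 or 3 or hairpin 2 replicate 1 (adjusted p = 0.0794 to 0.0959). TLR7 and TLR8 passed the filter for low counts there only with hairpin 2 libraries, so nothing is read from their part in the 6. In SKNO1, TLR1 (2.03 ± 0.35), TLR6 (2.00 ± 0.33) and TLR4 (1.39 ± 0.20) were higher with hairpin 2, 3 of 6 members where 9.52% of all genes differed and 4.52% were higher, and these calls held without each library in turn. MYD88 was not called between the SKNO1 hairpins, at 0.64 ± 0.21 (adjusted p = 0.073). CARM1 itself was lower with hairpin 2 than with hairpin 1 in MV411 and SKNO1, with log2 differences of -1.02 ± 0.18 and -1.45 ± 0.20, and was not called different in MOLM13, at -0.22 ± 0.30. The part of the knockdown depth in these differences was not tested.

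The effect of hairpin 1 on TLR4 differed between SKNO1 and both other lines in a fit of all 27 libraries. LY96, CD14, TLR7 and TLR8 were too low for a test within SKNO1 and are left out of the member counts against it. The log2 effect in SKNO1 was lower by 2.23 ± 0.37 than in MOLM13 (adjusted p = 0.00336; 3 of 6 members and 4.56% of all genes differed, 1.46% with a lower effect in SKNO1) and lower by 1.82 ± 0.37 than in MV411 (adjusted p = 0.0164; 1 of 6 members and 0.983% of all genes, 0.16% lower). TLR1 and TLR6 were the other 2 members that differed between SKNO1 and MOLM13, with the SKNO1 effect lower by 1.97 ± 0.49 and 1.71 ± 0.45 (adjusted p = 0.0227 and 0.0303). No member passed the threshold for hairpin 1 between MV411 and MOLM13 (0% of all genes did, 5 members had an unadjusted p under 0.05, and DESeq2 called 1). For hairpin 2, no member passed in any pair of lines. Of all genes 0.0705%, 0.489% and 0.927% passed for MV411 against MOLM13, SKNO1 against MOLM13 and SKNO1 against MV411, and 1 of 10, 3 of 6 and 2 of 6 members had an unadjusted p under 0.05. The MYD88 effect of hairpin 2 was higher in SKNO1 than in MV411 by 1.08 ± 0.39, which was not called (adjusted p = 0.221).

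Around these receptors, genes of the pathway were counted in 6 lists. Of 21 adaptors and kinases tested with hairpin 2 in MV411, where 18.6% of all genes changed and 8.38% rose, 3 rose and 2 fell, a share near that background. The rises included IRAK2, a kinase recruited to MYD88 (1.31 ± 0.35 on the log2 scale), and IKBKE (0.53 ± 0.15), and UBE2N and IRAK1 had differences of -0.71 ± 0.18 and -0.53 ± 0.14. Of 10 negative regulators 4 rose, among them PELI1 (1.35 ± 0.24) and IRAK3 (0.65 ± 0.14), an inhibitory IRAK. Of 4 other receptors tested, TLR10 rose (2.57 ± 0.44), and of 5 trafficking and ligand-transfer genes CD36 (2.20 ± 0.25) and CNPY3 (0.62 ± 0.12) rose. Of 6 cytokine targets 4 rose, CXCL8 by 3.05 ± 0.29 and IL1B by 2.11 ± 0.30 on the log2 scale. None of 6 nuclear factors changed. The median log2 difference of the cytokine targets was 1.93 and that of the adaptors and kinases -0.05, beside 0.00 over all genes tested.

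CXCL8, the neutrophil chemokine interleukin-8, rose in 4 of the 6 hairpin comparisons. It rose by 2.45 ± 0.34 and 2.48 ± 0.34 on the log2 scale in MOLM13 with hairpins 1 and 2, and by 1.19 ± 0.21 in SKNO1 with hairpin 2. In MOLM13, where 2.13% and 3.39% of all genes rose with hairpins 1 and 2, 2 of 10 negative regulators rose with each hairpin, NFKBIA, the inhibitor of NF-kB (1.47 ± 0.20 and 1.35 ± 0.20), and the ribonuclease ZC3H12A (1.03 ± 0.23 and 0.94 ± 0.23), and none of 20 adaptors and kinases changed with hairpin 1. Hairpin 2 raised IKBKE (0.58 ± 0.15) and lowered UBE2N (-0.71 ± 0.19) there, 1 of 20 in each direction, where 9.42% of all genes changed. With hairpin 1 in MV411, 6.51% of all genes changed and 2.37% rose. There CD36 and CNPY3 (2 of 5 trafficking genes), IKBKE (1 of 21 adaptors and kinases) and NFKBIA (1 of 10 negative regulators) rose, by 0.48 to 1.05. None of 4 other receptors, 6 nuclear factors and 6 cytokine targets changed with it. In SKNO1 0.532% of all genes changed with hairpin 1 (0.255% rose and 0.277% fell) and 11.2% with hairpin 2 (5.54% rose). There HSP90B1, the chaperone of most Toll-like receptors and 1 of 3 trafficking genes tested, was lower with both hairpins, at -1.16 ± 0.20 and -0.66 ± 0.20. IRAK1 rose with hairpin 1 (1.24 ± 0.19), 1 of 20 adaptors and kinases. With hairpin 2, 2 of 20 rose, TICAM1, the adaptor used by TLR4 and TLR3 without MYD88 (0.90 ± 0.26), and BTK (0.54 ± 0.16). CNPY3 (0.66 ± 0.17), 1 of 3 trafficking genes, and IRF7 (1.09 ± 0.28), 1 of 6 nuclear factors, also rose with hairpin 2. So did 2 of 5 cytokine targets, CXCL8 and PTGS2 (0.96 ± 0.27). None of 10 negative regulators and 3 other receptors changed with either hairpin there. The counts per list are small, and no result about the pathway is read from them.

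Correlations between members across libraries were all above 0. Other pairs of genes were not measured in the same way, so nothing particular to the members is read from them. After centring on the mean of each line, the 45 pairs of members had Pearson correlations from 0.249 to 0.861 over the 27 libraries, with a median of 0.664. CD14 and LY96 were the most alike (0.861), followed by LY96 with TLR8 (0.849) and TLR1 with TLR6 (0.847). These libraries share groups and scaling, and the low counts of CD14, LY96, TLR7 and TLR8 in SKNO1 carry little information. Centring on lines leaves the differences between scramble and hairpin groups in these values. Of the genes expressed at a mean log2 CPM of 2 or more, HLA-DMA followed TLR1 most closely (0.941), ABCA1 followed TLR4 (0.934), PLA2G4C followed TLR5 (0.914), TNNT1 followed TLR6 (0.895), ARL6IP5 followed TLR2 (0.890) and FURIN followed MYD88 (0.871). Each of these is the highest of 10253 or 10254 candidates.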

How the data were processed

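Total RNA was prepared 3 days after shRNA delivery, and stranded libraries were sequenced after depletion of ribosomal RNA, per the labels' protocols. Alignment with STAR 2.5.3 to GRCh38.p7 and counting with RSEM (version not given) are from the submitters' processing notes. The authors deposited RSEM expected counts per gene, without scaling for depth or length. No label states the strand setting of the counting. The 27 columns were assigned to samples by their names.

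Expected counts were rounded. edgeR 4.0.16 (R 4.3.3) scaled libraries by TMM, kept genes with filterByExpr (minimum count 10, minimum total 15) and applied the quasi-likelihood test, with Benjamini-Hochberg adjustment over every gene kept and a threshold of 0.05. Each line was fitted with its 9 libraries, the scramble groups with 9 libraries, and differences of effects between lines with all 27. Errors of log2 differences are standard errors of these fits. CPM uses the scaled sizes, exon lengths come from GENCODE 29, and log2 CPM has a prior count of 2. A count of 0 allows up to 3 counts, for counting error only. The fit was checked on simulated data. Groups share replicate numbers, with no label saying what a number marks. Libraries with the same number deviated together, with every correlation above 0.1, between scramble and hairpin 1 in MOLM13 (0.135 to 0.287) and between scramble and each hairpin in MV411 (0.14 to 0.192 and 0.155 to 0.501), so the blocked value is given beside those results where a call changes. Alternatives were RLE scaling, no filter, DESeq2 1.42.0, removal of mitochondrial and structured RNA, a replicate block, other sample sets and leaving out each replicate.

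The members, the pathway lists and the markers were chosen with earlier results of these data known. All 10 members and CARM1 were always named, with up to 2 pathway genes per list and direction by smallest p. NFKBIA in MV411 was named as well, after its value was seen, and so were TLR8-AS1, an antisense gene of TLR8, and the markers ITGAM, LYZ, MPO and CSF1R. Motif letters were set with their matches known. Genes most like a member were ranked by Pearson correlation, without a p.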

Additional observations from a re-analysis of the deposited data

Results flagged for a closer look

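In 4 results the effect of hairpin 1 differed between lines by an interaction term in edgeR's quasi-likelihood test over 27 libraries. The TLR4 effect in SKNO1 minus that in MOLM13 was -2.23 on the log2 scale, and this difference passed the threshold without each library in turn. The TLR4 effect in SKNO1 minus that in MV411 was -1.82, and it was not called without MV411 scramble replicate 3, MV411 hairpin 1 replicate 2, SKNO1 scramble replicate 1 or 3, or SKNO1 hairpin 1 replicate 3 (adjusted p = 0.0516 to 0.0828). The TLR1 and TLR6 effects in SKNO1 minus those in MOLM13 were -1.97 and -1.71. TLR1 lost its call without MOLM13 scramble replicate 3, SKNO1 scramble replicate 1 or 3, or SKNO1 hairpin 1 replicate 3 (adjusted p = 0.0541 to 0.0912). TLR6 lost its call without any of 7 libraries (adjusted p = 0.0572 to 0.105) and in a fit of the 18 libraries of both lines (0.0521). CARM1 was reduced less by hairpin 1 in SKNO1 than in MOLM13 (the log2 effect was higher by 1.12 ± 0.32, adjusted p = 0.0444), and its part in these differences was not tested.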

How the results depend on the processing

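No member changed direction past the threshold under any alternative run. For single members, 534 alternative values passed the threshold as in the reported fit, 80 passed it where the reported fit did not and 70 no longer passed. Values that passed in neither fit are not in these numbers. Without a filter on low counts more members were called: 7 with hairpin 1 and 9 with hairpin 2 in MOLM13, 3 with hairpin 1 in MV411, and, for effects between lines, 3 for hairpin 1 between MV411 and MOLM13, 6 for hairpin 1 between SKNO1 and MOLM13 and 2 for hairpin 2 between SKNO1 and each other line. All genes called rose as well, from 1131 to 2185, 1671 to 2897 and 1159 to 1913 in the first 3 of these, from 0 to 285 and 970 to 1315 for the hairpin 1 effects, and from 104 to 636 and 197 to 808 for the hairpin 2 effects. DESeq2 called 5 with hairpin 2 in MOLM13, 2 with hairpin 1 in MV411, 5 between the SKNO1 hairpins, and 1 and 6 for the hairpin 1 effect of MV411 and of SKNO1 against MOLM13. All genes called went from 1671 to 2707 with hairpin 2 in MOLM13 and from 1159 to 1807 with hairpin 1 in MV411. For these hairpin 1 effects they went from 0 to 33 and 970 to 1488. The fit of all 27 libraries called 6 and 8 in MOLM13, 0 with hairpin 1 in MV411 and 1 with hairpin 1 in SKNO1. All genes called went from 1131 to 2128 and 1671 to 3059 in MOLM13. With hairpin 1 they went from 1159 to 887 in MV411 and from 98 to 186 in SKNO1. Removing mitochondrial and structured RNA left 1 with hairpin 1 in SKNO1, where all genes called went from 98 to 73. The removal moved 71 of 90 group levels by more than 1 SD, since CPM rose 1.57- to 1.66-fold. The fit of 18 libraries called 1, TLR8, for the hairpin 2 effect of SKNO1 against MV411, where all genes called went from 197 to 445. TLR8, and CD14 under DESeq2, were too low in SKNO1 for a test within that line, and nothing is read from their calls against it. Leaving out both high MOLM13 libraries, chosen after seeing the data, left 1 with hairpin 2, where all genes called went from 1671 to 1982. Leaving out each replicate gave 0 to 2 members for hairpin 1 and 0 to 4 for hairpin 2 in MOLM13, 0 to 2 for hairpin 1 in MV411 and in SKNO1, 1 to 2 for hairpin 2 in SKNO1, 1 to 4 and 0 to 1 for the hairpin 1 effect of SKNO1 against MOLM13 and MV411, and 0 to 1 for the hairpin 2 effect of SKNO1 against MOLM13. Where an arm was left with 2 libraries, the fit pooled their spread with the other groups. The counts for hairpin 2 in MV411 stayed at 7 to 10. The causes of these shifts were not tested.

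Counts of all genes called also moved with single libraries, from 335 to 910 (reported 1131) and 441 to 1586 (1671) in MOLM13, 341 to 1185 (1159) and 1716 to 3548 (3313) in MV411, and 3 to 411 (98) and 559 to 1374 (2069) in SKNO1 for hairpins 1 and 2.

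With a replicate block, hairpin 1 in MV411 called 2 members, TLR4 and MYD88, hairpin 2 there called 10, and the MOLM13 counts stayed at 2, with TLR4 called in place of TLR1. All genes called with hairpins 1 and 2 went from 1159 to 2250 and 3313 to 4869 in MV411. In MOLM13 they went from 1131 to 1003 and 1671 to 1284. In the other comparisons, where not every same-numbered pair correlated above 0.1, the libraries share only a number, and there the block added TLR5 between the MV411 hairpins and TLR2 between those of SKNO1. Genes with few counts, CD14, LY96, TLR7 and TLR8 in SKNO1 above all, are limited by depth.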
